A study of Mus musculus with 6 samples.

Results

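The genes described here are the cytochrome P450 genes of families 1 to 3 in the liver of fructose-fed pregnant mice. They were taken by symbol, as every gene named Cyp1, Cyp2 or Cyp3 followed by a subfamily letter and a number, without pseudogenes. Of 56691 genes in the table, 58 carried such a symbol, and the 48 with at least 10 reads summed over the 6 libraries were kept as members. The other 10 had fewer reads, and 7 of them had 0. Poly(A) RNA-seq was performed on liver of 3 KPF and 3 WPF dams. KPF dams were h*Chrebp* KO mice, which carry *Chrebp* flox/flox together with *Alb*-Cre, so that exon 2 of *Mlxipl*, the gene of the carbohydrate-responsive factor ChREBP, is removed in hepatocytes while the other liver cells keep it. WPF dams are labelled WT and are described in the study as *Chrebp* flox/flox mice without Cre. All dams were on a C57BL/6J background, were mated with *Chrebp* flox/flox males on Day 0, received a high-fructose diet (HFrD) from that day and were sacrificed on Day 17. Their age is not given in the sources used here. The study counts the libraries as biological replicates, and each is taken here as 1 dam.

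P450s of families 1 to 3 are membrane-bound heme enzymes of the endoplasmic reticulum that oxidize drugs, dietary toxins, steroids and fatty acids, using electrons passed on by the reductase POR. In hepatocytes many of their genes are switched by ligand-activated receptors, with AHR acting on the Cyp1a genes, CAR (*Nr1i3*) on *Cyp2b10* and PXR (*Nr1i2*) on Cyp3a genes. Many are expressed mainly around the central vein of the lobule, and in mice several Cyp2a, Cyp2b, Cyp2c and Cyp3a genes differ between the sexes through the pattern of growth hormone. Most lie in tandem clusters of related genes, some of them close copies, which is why the promoters of the closest copies are shown before the values.

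The following windows, read from RefSeq on GRCm38.p6, run from upstream of the transcript start into the first exon and are 300 bases long. They are shown because *Cyp3a11* had the lowest fold change among the tested members, because *Cyp2a4* and *Cyp2a5* are close copies of which the first was lower in KPF and the other was not called, because *Cyp2b9* and *Cyp2b13* are the closest pair, and because *Cyp2a22* was higher in KPF. Capitals mark the nuclear receptor half-sites AGGTCA and AGTTCA, or the same letters read on the other strand. *Cyp3a11* lies at chr5:145879805-145880104 (minus strand), *Cyp2a4* at chr7:26306942-26307241 (plus), *Cyp2a5* at chr7:26835089-26835388 (plus), *Cyp2b9* at chr7:26173159-26173458 (plus), *Cyp2b13* at chr7:26061245-26061544 (plus) and *Cyp2a22* at chr7:26939337-26939636 (minus).
Cyp3a11: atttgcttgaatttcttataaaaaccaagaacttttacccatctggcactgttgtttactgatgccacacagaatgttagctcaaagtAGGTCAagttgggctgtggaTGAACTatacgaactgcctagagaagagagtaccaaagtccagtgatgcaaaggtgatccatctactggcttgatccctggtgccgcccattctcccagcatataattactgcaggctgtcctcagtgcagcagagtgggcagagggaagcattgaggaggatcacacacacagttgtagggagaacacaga
Cyp2a4: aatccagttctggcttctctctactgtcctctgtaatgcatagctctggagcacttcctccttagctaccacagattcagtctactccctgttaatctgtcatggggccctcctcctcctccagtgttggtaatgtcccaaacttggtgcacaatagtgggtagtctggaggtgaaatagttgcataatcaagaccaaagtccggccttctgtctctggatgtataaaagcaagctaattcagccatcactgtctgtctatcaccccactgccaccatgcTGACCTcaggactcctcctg
Cyp2a5: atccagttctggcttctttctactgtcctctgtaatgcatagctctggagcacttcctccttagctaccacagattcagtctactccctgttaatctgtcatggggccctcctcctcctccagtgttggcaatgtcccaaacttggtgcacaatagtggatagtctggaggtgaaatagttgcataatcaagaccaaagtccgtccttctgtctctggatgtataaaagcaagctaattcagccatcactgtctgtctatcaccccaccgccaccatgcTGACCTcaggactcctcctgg
Cyp2b9: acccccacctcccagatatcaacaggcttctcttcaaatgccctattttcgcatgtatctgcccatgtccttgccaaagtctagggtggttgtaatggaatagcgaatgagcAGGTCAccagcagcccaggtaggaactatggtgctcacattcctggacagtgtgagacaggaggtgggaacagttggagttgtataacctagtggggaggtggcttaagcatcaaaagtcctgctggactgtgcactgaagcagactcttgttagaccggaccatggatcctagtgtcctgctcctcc
Cyp2b13: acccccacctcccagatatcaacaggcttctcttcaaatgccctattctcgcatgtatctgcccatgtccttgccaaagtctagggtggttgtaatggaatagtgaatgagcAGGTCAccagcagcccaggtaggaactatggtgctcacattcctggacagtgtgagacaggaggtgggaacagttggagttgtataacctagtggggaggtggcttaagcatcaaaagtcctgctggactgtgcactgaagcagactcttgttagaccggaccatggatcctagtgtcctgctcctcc
Cyp2a22: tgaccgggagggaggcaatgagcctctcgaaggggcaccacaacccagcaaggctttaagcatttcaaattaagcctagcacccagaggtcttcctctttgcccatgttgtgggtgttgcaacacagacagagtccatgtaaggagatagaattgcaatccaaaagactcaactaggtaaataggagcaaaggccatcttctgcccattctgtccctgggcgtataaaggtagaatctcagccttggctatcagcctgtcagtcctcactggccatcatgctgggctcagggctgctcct

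Aligned over their whole length, the windows of *Cyp2b9* and *Cyp2b13* were identical at 99.3% of positions and those of *Cyp2a4* and *Cyp2a5* at 97.7%. The windows of *Cyp2a12* and *Cyp2a22* shared 84.2%, and those of *Cyp3a25* and *Cyp3a59* 95.7%. For the *Cyp3a11* window the highest identity to another Cyp3a window was 75.5%, with *Cyp3a16*. The *Cyp2a4* and *Cyp2a22* windows hold the TATA box letters TATAAA at position -28 from the start, and the *Cyp2a5* window at -29. In the *Cyp3a11* window the same letters stand at -234, far from the start.

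A promoter window was found for 42 of the 48 members, which gave 44 windows because *Cyp3a25* and *Cyp2c39* have more than a single window. AGGTCA, searched on both strands, was present in 17 of the 44 (38.6%), against 16.2% of all 32544 promoter windows of the same length. The member windows are not independent, since close copies share their letters. *Cyp3a25* is counted with windows that start at 146009568 and 146009569, both holding AGGTCA. The *Cyp2c39* windows start far apart, at 39347096 and 39510572, and the first of them holds AGGTCA. In the *Cyp2a4* and *Cyp2a5* windows the marked letters stand after the transcript start. TATAAA on the printed strand was present in 18 of the 44 (40.9%), against 8.28% of all. AGTTCA was found in 5 of the 44 (11.4%) and in 14% of all windows, and the HNF1 half-site GTTAAT in 6 (13.6%) and 7.14%. The E-box CACGTG, which occurs in some ChREBP elements, was present in 1 member window and in 7.17% of all windows. The AHR core GCGTG was found in 6 member windows (13.6%) and in 32.6% of all, and the STAT letters TTCNNNGAA in none of the 44, against 8.33% of all. These letter matches describe the windows and are not binding sites.

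The libraries held between 10694496 and 14496630 counted reads, and the members took 0.513, 1.18 and 0.806% of them in KPF replicates 1 to 3 and 0.773, 0.770 and 1.40% in WPF replicates 2 to 4. *Mlxipl* was counted at 182, 709 and 860 CPM in KPF against 974, 1277 and 891 CPM in WPF, where CPM are counts scaled to a common library size by TMM, and values are given in this order of replicates throughout. The groups did not overlap, but KPF replicate 3 was close to WPF replicate 4 and the log2 fold change of -0.84 (SE 0.53) had an adjusted p of 0.584 in edgeR's quasi-likelihood test. These counts are summed over the whole gene, of which the knockout removes exon 2, so they do not measure how far the allele was deleted. The study reports lower ChREBP mRNA and protein in the liver of the knockout mice. Of 7 hepatocyte markers, 6 were found and none differed by the rule used below, with a summed FPKM (reads per kilobase of exon, scaled to the total of the library) of 37217 to 44764 in KPF and 52304 to 72067 in WPF. FPKM is not scaled by TMM, whose factors were 0.9818, 0.9964 and 0.8995 in KPF and 0.8878, 1.085 and 1.18 in WPF. In CPM each of the 6 markers overlapped between the groups. *Alb* had 65832, 69063 and 91390 CPM in KPF against 150690, 92643 and 90628 CPM in WPF. KPF replicate 2 stood apart. The 4 striated muscle markers summed to 1245 FPKM there and to 0.54 to 4.44 FPKM in the 5 other libraries, and *Acta1*, the actin of skeletal muscle, had 780 CPM against at most 3.42 CPM elsewhere. Of 8 stellate cell and fibroblast markers, 4 were called higher in KPF by the rule below (*Reln*, *Des*, *Col1a1* and *Col3a1*), with a summed FPKM of 174, 232 and 72.2 in KPF and 82.4 to 92.3 in WPF. *Des*, which muscle expresses too, was at 54.5, 493 and 10.2 CPM in KPF and at 7.42 to 10.6 CPM in WPF, and without it, a choice made after seeing the data, the sums were 160, 104 and 69.8 FPKM in KPF and 80.0 to 90.0 FPKM in WPF. Without KPF replicate 2, 5 of the 8 were called higher, *Des* among them (log2 fold change 1.85). Of 6 sinusoidal endothelium markers 1 was called higher (*Pecam1*), and none of the Kupffer cell, cholangiocyte or pancreas markers tested was called. Without KPF replicate 2, 1 hepatocyte marker was called lower and 1 Kupffer cell marker higher. Of the 4 adipose markers, *Cfd* alone was tested and called higher at 4.25, 17.5 and 1.27 CPM in KPF and at most at 0.142 CPM in WPF. Mitochondrial transcripts took 33.2 to 35.0% of reads in KPF and 18.7 to 29.1% in WPF. Whether these differences take part in the results below was not tested, and results that rest on KPF replicate 2 are therefore given also without it. In whole-liver RNA, fewer cells of a type and less RNA per cell cannot be told apart.

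Levels between genes were compared as FPKM, which divides by the exonic length given for each gene. That length can exceed the longest protein-coding transcript. It was 3457 against 1681 bases for *Cyp2a12* and 5093 against 2344 for *Cyp3a11*, but 1738 for both in *Cyp2a4*. Ranks and shares between genes therefore depend on the length used. *Cyp2a4*, a steroid hydroxylase, had the highest FPKM over the 6 libraries (mean 461). It ranked first in each WPF library but 2, 7 and 2 in KPF replicates 1 to 3. Over the 6 libraries it was followed by *Cyp3a25* (404), the ethanol-oxidizing *Cyp2e1* (317), the coumarin hydroxylase *Cyp2a5* (313), *Cyp2a12* (269) and *Cyp2d26* (259). Among these, the spread between dams of a group was wide. *Cyp2a5* ranged from 87.2 to 701 FPKM within KPF and from 120 to 685 FPKM within WPF, and its rank ran from 1 to 10 in KPF and from 3 to 11 in WPF. At the lower end, 10 members had a mean FPKM under 1 and were not tested with the others.

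Summed over the members, the P450 level was 2227, 5368 and 3741 FPKM in KPF replicates 1 to 3 and 3373, 3501 and 6533 FPKM in WPF replicates 2 to 4. The ranges overlapped, and the lowest and the highest sum differed more within each group than between the group means. The Cyp2a genes gave 765, 1522 and 830 FPKM in KPF and 889, 1000 and 1886 FPKM in WPF. The Cyp2c sum was 381, 905 and 1308 FPKM in KPF and 655, 740 and 1467 FPKM in WPF. The Cyp3a sum was 199, 1007 and 513 FPKM in KPF and 721, 605 and 1272 FPKM in WPF, with KPF replicate 1 far below the rest. For the Cyp2j genes, whose enzymes epoxidize arachidonic acid, the groups did not overlap, with 33.2, 61.1 and 57.9 FPKM in KPF and 76.8, 84.0 and 88.0 FPKM in WPF. For the Cyp2d genes the KPF sums were 423, 631 and 384 FPKM and the WPF sums 639, 633 and 671 FPKM, and the highest KPF value came close to the lowest WPF value. All these sums are scaled to library totals and not by TMM, so how far the groups separate depends on the scaling. In TMM-scaled CPM, *Cyp2d26* was at 611 in KPF replicate 2 against 433 and 499 in WPF replicates 3 and 4. *Cyp2d10* went the other way, at 343 against 364 and 358 CPM.

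**Figure D1:**
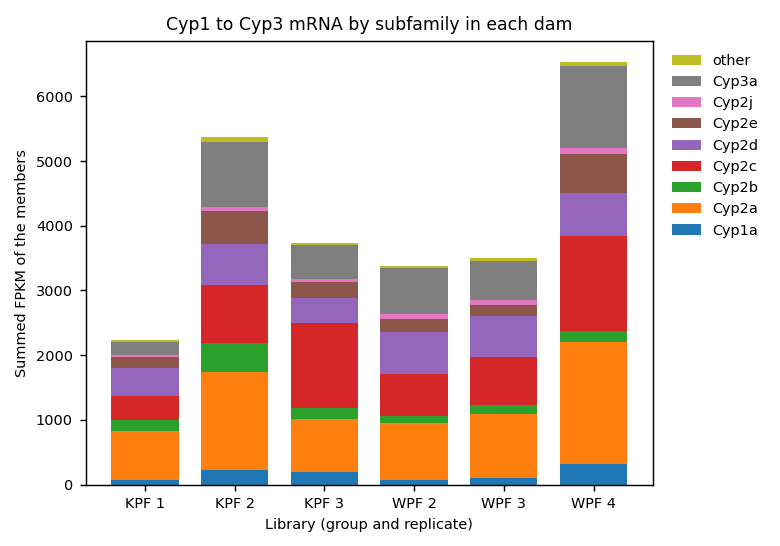
Summed FPKM of the member genes (y axis) in each of the 6 libraries (x axis, group and replicate), stacked by subfamily, where "other" gathers Cyp1b, Cyp2f, Cyp2g, Cyp2r, Cyp2s, Cyp2t and Cyp2u. Total height ran from 2227 to 5368 in KPF and from 3373 to 6533 in WPF, so the groups overlapped.

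KPF was compared with WPF for each gene with a mean FPKM of at least 1, which left 38 of the 48 members among 10866 genes. A gene was called higher or lower at an unadjusted p under 0.05 and at least 1.5-fold in edgeR's quasi-likelihood test, a nominal rule of the kind used in the study's volcano plot. Of the 38 members, 6 were called, 3 higher (*Cyp2a22*, *Cyp2a12* and *Cyp2b13*) and 3 lower in KPF (*Cyp3a11*, *Cyp2a4* and *Cyp2c29*). Over all genes tested the rule called 9.81%, with 5.83% higher and 3.98% lower. No member passed an adjusted p of 0.05 in edgeR (smallest adjusted p = 0.416, 6 members with an unadjusted p under 0.05), nor did any other gene (smallest adjusted p = 0.397, 1176 genes with an unadjusted p under 0.05). By DESeq2, 156 genes passed the adjusted threshold, of which 3 were members, *Cyp2a4* (adjusted p = 0.00111), *Cyp3a11* (0.00210) and *Cyp2a22* (0.00240). The median log2 fold change was -0.06 over the 38 members and 0.02 over all tested genes. The groups did not overlap for 3 members that were higher and 4 that were lower in KPF, against 7.55% and 8.15% of all tested genes. With 3 dams in each group, an exact two-sided permutation test over the libraries cannot go below p = 0.1, the value it gave for each of these 7.

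**Figure D2:**
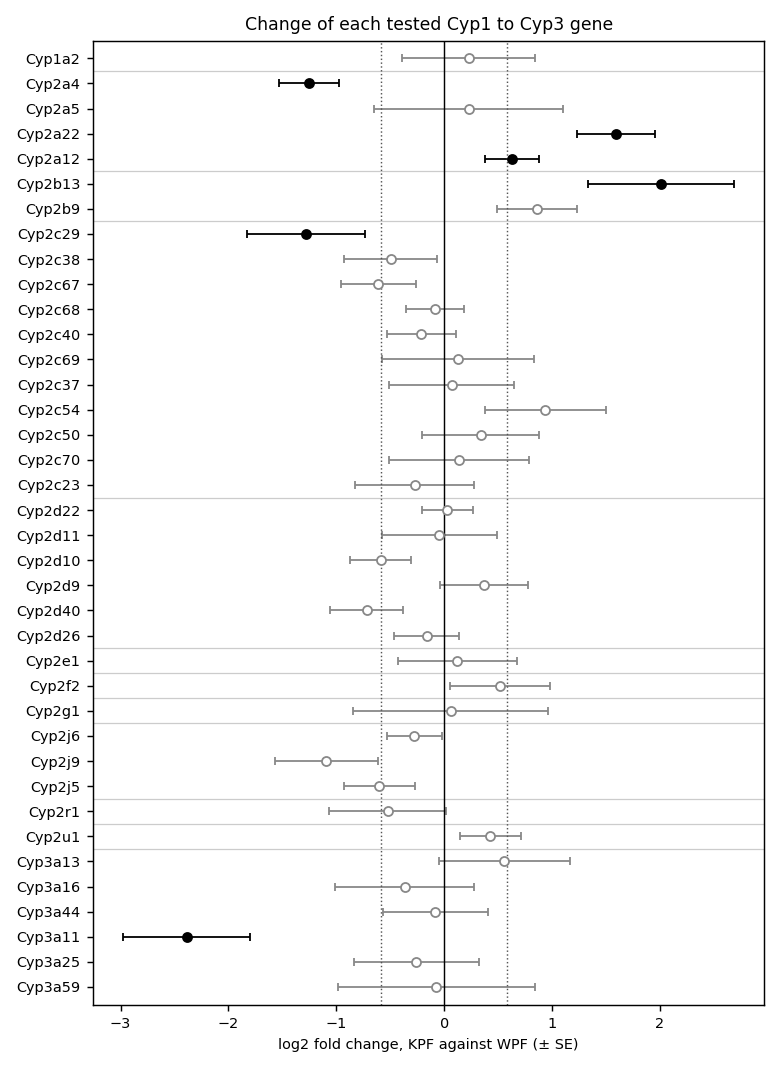
Log2 fold change of KPF against WPF (x axis) with its standard error for each of the 38 tested members (y axis, by subfamily); filled points were called, open points were not, and dotted lines mark 1.5-fold. Of the 38 members, 25 lay within 1.5-fold.

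*Cyp3a11*, the main drug-metabolizing Cyp3a of mouse liver and a target of PXR, was counted at 53.3, 238 and 228 CPM in KPF against 1301, 637 and 772 CPM in WPF. The highest KPF library was far below the lowest WPF library. The mean was 173 ± 104 CPM in KPF and 903 ± 351 CPM in WPF (SD, n = 3 each), 5.22-fold lower in KPF, with a log2 fold change of -2.38 (SE 0.59, adjusted p = 0.430 in edgeR). The call was made under all 15 alternatives of the analysis, with log2 fold changes between -2.72 and -1.96. As a share of the Cyp3a FPKM in the same library, *Cyp3a11* was 5.09, 4.55 and 7.75% in KPF and 31.2, 22.1 and 13.8% in WPF, so it was also lower relative to its own subfamily. These percentages rest on an exonic length of 5093 bases, while its longest protein-coding transcript has 2344. A shorter length would raise them in both groups. *Cyp3a11* (ENSMUSG00000056035) lies at chr5:145791236-145816774 on the minus strand in the table, whose build is GRCm39 by the submitters' notes.

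The other Cyp3a genes were not called. *Cyp3a25*, the Cyp3a with the highest FPKM, was at 262, 1350 and 667 CPM in KPF against 829, 581 and 1315 CPM in WPF. The WPF values lay inside the KPF range and the log2 fold change was -0.26 (SE 0.58). In CPM, which is not divided by length, *Cyp3a11* was above *Cyp3a25* in WPF replicates 2 and 3 (1301 and 637 CPM) and below it in the other libraries. *Cyp3a44* had 53.4, 226 and 161 CPM in KPF against 143, 192 and 130 CPM in WPF. *Cyp3a16*, in the same cluster, had 25.0, 82.6 and 99.8 CPM in KPF against 40.9, 59.7 and 167 CPM in WPF. Both are genes with higher expression in female mice. *Cyp3a59* was at 15.7, 231 and 97.7 CPM in KPF against 114, 34.7 and 214 CPM in WPF (log2 fold change -0.07, SE 0.91), and *Cyp3a13*, the Cyp3a gene outside the cluster, at 56.8, 158 and 68.9 CPM in KPF against 35.6, 33.4 and 124 CPM in WPF (0.56, SE 0.61). All 4 genes overlapped between the groups. In the cluster of 6 members at chr5:145282089-146050097, 5 were tested and *Cyp3a11* was the gene called.

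The Cyp2a genes differed among themselves. *Cyp2a4* was counted at 397, 424 and 578 CPM in KPF against 1027, 1001 and 1304 CPM in WPF. No KPF library reached the lowest WPF library, and the means of 466 ± 98.1 and 1111 ± 168 CPM (SD, n = 3 each) gave a log2 fold change of -1.25 (SE 0.28, adjusted p = 0.416 in edgeR), or 2.38-fold lower in KPF. It made up 28.9, 15.7 and 35.6% of the Cyp2a FPKM in KPF and 58.4, 61.6 and 46.2% in WPF. Its close copy *Cyp2a5* was at 187, 1482 and 376 CPM in KPF against 294, 231 and 1223 CPM in WPF. A single library of each group was several times higher than the other two, the groups overlapped, and the log2 fold change was 0.23 (SE 0.88, adjusted p = 0.937 in edgeR). *Cyp2a4* was called under all 15 alternatives, with log2 fold changes between -1.44 and -1.03.

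*Cyp2a22* was counted at 624, 722 and 334 CPM in KPF against 159, 163 and 235 CPM in WPF. All KPF libraries were above all WPF libraries. The means of 560 ± 202 and 186 ± 42.8 CPM (SD, n = 3 each) differed 3.02-fold, with a log2 fold change of 1.59 (SE 0.36, adjusted p = 0.416 in edgeR), and the call was made under all 15 alternatives (1.36 to 1.86). *Cyp2a12*, a steroid and bile acid hydroxylase next to it on the chromosome, was at 1004, 1324 and 1121 CPM in KPF against 805, 690 and 742 CPM in WPF. These groups did not overlap either, and the log2 fold change was 0.63 (SE 0.25, adjusted p = 0.448 in edgeR). The call of *Cyp2a12* was made under 4 of 15 alternatives only, and ended when KPF replicate 2 was left out (log2 fold change 0.50). It ended as well without KPF replicate 3 (0.64) and without WPF replicate 2 (0.68), 3 (0.57) or 4 (0.61). Within the Cyp2a FPKM, the share of *Cyp2a22* was 10.4 to 22.9% in KPF and 4.2 to 5.07% in WPF.

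**Figure D3:**
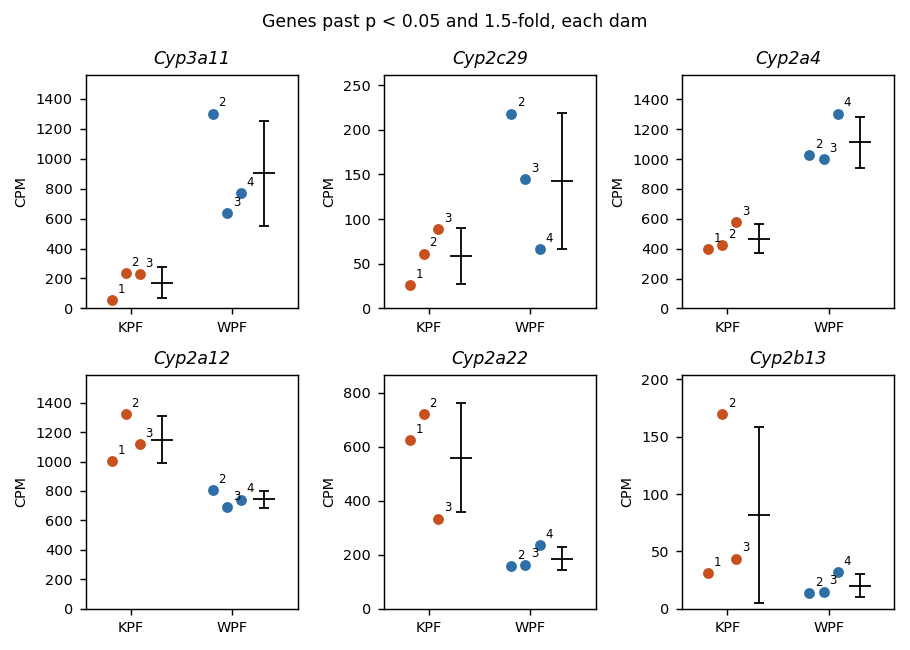
CPM (y axis, starting at 0) of the 6 called members in each library, KPF in orange and WPF in blue, with replicate numbers; the black bars give the mean ± SD of 3 dams. The groups are separate for *Cyp3a11*, *Cyp2a4*, *Cyp2a12* and *Cyp2a22* and overlap for *Cyp2c29* and *Cyp2b13*.

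Among the Cyp2b genes, *Cyp2b13* was counted at 31.1, 170 and 43.8 CPM in KPF against 13.9, 15 and 31.9 CPM in WPF. KPF replicate 2 was the highest library, and KPF replicate 1 lay just below WPF replicate 4. The means of 81.6 ± 76.8 and 20.2 ± 10.1 CPM (SD, n = 3 each) gave a log2 fold change of 2.01 (SE 0.68, adjusted p = 0.430 in edgeR). Without KPF replicate 2, the library with muscle RNA, the log2 fold change was 0.88 and the gene was not called. The call also ended without WPF replicate 2 (1.80) or WPF replicate 3 (1.83). *Cyp2b9*, with a nearly identical promoter window, was at 284, 666 and 308 CPM in KPF against 212, 236 and 245 CPM in WPF. Its groups did not overlap, but it just missed the threshold on p (log2 fold change 0.86, SE 0.37, adjusted p = 0.461 in edgeR), and it was at 0.35 without KPF replicate 2. It was called higher under 5 of 15 alternatives, without KPF replicate 1 (1.08) or 3 (1.04), by DESeq2 (0.86), with its size factors (0.86) and with no filter (0.79). *Cyp2b9* made up 79.3 to 90.1% of the Cyp2b FPKM in KPF and 88.4 to 94.0% in WPF. *Cyp2b10*, the classical marker of CAR activation, was barely expressed, with 1, 46 and 16 reads in KPF and 2, 1 and 3 reads in WPF.

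*Cyp2c29* was the Cyp2c gene called. It was counted at 26.2, 61.4 and 89.1 CPM in KPF against 218, 145 and 66.2 CPM in WPF, and WPF replicate 4 lay below KPF replicate 3. The means of 58.9 ± 31.5 and 143 ± 76.0 CPM (SD, n = 3 each) gave a log2 fold change of -1.28 (SE 0.55, adjusted p = 0.461 in edgeR), 2.43-fold lower in KPF. The call was made under 10 of 15 alternatives. It ended without KPF replicate 1 (log2 fold change -0.93) or 2 (-1.32), and without WPF replicate 2 (-0.84) or 3 (-1.27). The other 10 tested Cyp2c genes had log2 fold changes from -0.61 for *Cyp2c67* to 0.94 for *Cyp2c54*. *Cyp2c69*, the Cyp2c with the highest level and a gene with higher expression in females, was at 150, 186 and 821 CPM in KPF against 203, 264 and 591 CPM in WPF, and its log2 fold change of 0.13 (SE 0.71) turned to -1.07 without KPF replicate 3. *Cyp2c70*, the enzyme that makes muricholic acids from chenodeoxycholic acid, was at 111, 388 and 628 CPM in KPF against 224, 212 and 589 CPM in WPF (log2 fold change 0.14, SE 0.65). The Cyp2c cluster at chr19:38995463-40175777 held 12 members, of which 10 were tested and 1 was called. *Cyp2c55*, under the FPKM minimum, had 2, 8 and 21 reads in KPF and 35, 39 and 50 reads in WPF.

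None of the 6 tested Cyp2d or 3 tested Cyp2j genes was called. *Cyp2d10* was at 243, 343 and 241 CPM in KPF against 523, 364 and 358 CPM in WPF, with no overlap of the groups, and its log2 fold change was -0.59 (SE 0.28). *Cyp2d40* was at 56.1, 43.7 and 37.5 CPM in KPF against 70.4, 109 and 46.9 CPM in WPF (log2 fold change -0.72, SE 0.34), and was called lower under 5 of 15 alternatives, without WPF replicate 4 (-0.98), with library totals (-0.84), with at least 10 reads (-0.78), with no filter (-0.79) and with a replicate block (-1.11). *Cyp2d26*, the Cyp2d with the highest level, had 362, 611 and 351 CPM in KPF against 547, 433 and 499 CPM in WPF (-0.16, SE 0.30). *Cyp2d9*, a testosterone hydroxylase of male liver, was low in these females at 6.90 to 10.2 CPM in KPF and 3.09 to 8.14 CPM in WPF. *Cyp2j5* was at 49.6, 85.7 and 117 CPM in KPF against 133, 129 and 120 CPM in WPF, with KPF replicate 3 just below WPF replicate 4 (log2 fold change -0.60, SE 0.33, adjusted p = 0.533 in edgeR), and it was called lower under 3 of 15 alternatives, without KPF replicate 3 (-0.91) and in both FPKM tests (-0.79 and -0.81). *Cyp2j9* was at 9.36, 28.5 and 7.69 CPM in KPF against 37.1, 27.2 and 32.9 CPM in WPF. KPF replicate 2 lay within the WPF range (log2 fold change -1.09, SE 0.48, adjusted p = 0.464 in edgeR), and without it the log2 fold change was -1.93. The gene was called lower under 8 of 15 alternatives, without that library, by DESeq2 (-1.09), with library totals (-1.19), with both lower filters, with both FPKM tests and with a replicate block. The third tested Cyp2j, *Cyp2j6*, was at 36.8, 61.6 and 47.5 CPM in KPF against 70.0, 55.0 and 51.6 CPM in WPF.

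The subfamilies with a single tested gene gave no call. *Cyp1a2*, the caffeine demethylase and main constitutive AHR target, was at 137, 450 and 428 CPM in KPF against 151, 176 and 541 CPM in WPF (log2 fold change 0.23, SE 0.61). *Cyp2e1* was at 390, 1126 and 599 CPM in KPF against 491, 330 and 1121 CPM in WPF (0.12, SE 0.55). The groups overlapped for both genes. *Cyp2f2*, a periportal P450, was at 35.9, 125 and 76.9 CPM in KPF against 34.9, 60.7 and 70.6 CPM in WPF (0.52, SE 0.46). *Cyp2r1*, a vitamin D hydroxylase, had 1.54, 3.77 and 7.30 CPM in KPF against 6.22, 4.2 and 7.72 CPM in WPF (-0.52, SE 0.54). *Cyp2u1* (log2 fold change 0.43, SE 0.28) and *Cyp2g1* (0.06, SE 0.90) lay between 2.28 and 23.6 CPM. The inducible *Cyp1a1* and *Cyp1b1* were near the limit of detection, with 82 and 66 reads in all 6 libraries together. The other members under the FPKM minimum, beside *Cyp2b10* and *Cyp2c55*, were *Cyp2c39*, *Cyp2d12*, *Cyp2j8*, *Cyp2s1*, *Cyp2t4* and *Cyp3a57*, with 12 to 104 reads in all libraries, too few for a comparison.

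By subfamily, the median log2 fold change was 0.43 for the 4 tested Cyp2a genes (2 called higher and 1 lower), 1.43 for the 2 Cyp2b genes (1 higher), -0.08 for the 11 Cyp2c genes (1 lower), -0.10 for the 6 Cyp2d genes, -0.60 for the 3 Cyp2j genes and -0.17 for the 6 Cyp3a genes (1 lower). Leaving out KPF replicate 2 moved the median to -0.28 for Cyp2a, 0.61 for Cyp2b, -0.24 for Cyp2c, -0.44 for Cyp2d, -0.62 for Cyp2j and -0.76 for Cyp3a. In the cluster at chr7:25501900-26858093, which holds the Cyp2a and Cyp2b genes with *Cyp2f2*, *Cyp2g1*, *Cyp2s1* and *Cyp2t4*, 8 of 11 members were tested, 3 were called higher and 1 lower. The Cyp2d cluster on chromosome 15 and the Cyp2j cluster on chromosome 4 had no call.

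KPF replicate 1 was the lowest library for 22 of the 38 tested members, with a median deviation of -0.82 on the log2 scale from the mean of the 6 libraries, and KPF replicate 2 was the highest for 15. The median standard error of the log2 fold change was 0.509 for members and 0.295 for all tested genes. The 7 pericentral members (*Cyp1a2*, *Cyp2a5*, *Cyp2c29*, *Cyp2c37*, *Cyp2c50*, *Cyp2c54* and *Cyp2e1*) summed to 401, 1761 and 878 FPKM in KPF and to 577, 545 and 1894 FPKM in WPF. A single library of each group, KPF replicate 2 or WPF replicate 4, was above all others by this sum. The 7 members known for higher expression in females (*Cyp2a4*, *Cyp2b9*, *Cyp2b13*, *Cyp2c40*, *Cyp2c69*, *Cyp3a16* and *Cyp3a44*) gave 1 call in each direction, and their median log2 fold change was -0.08. Outside the P450s, the pericentral marker *Glul* (glutamine synthetase) was at 462 to 777 CPM in KPF and 635 to 716 CPM in WPF.

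**Figure D4:**
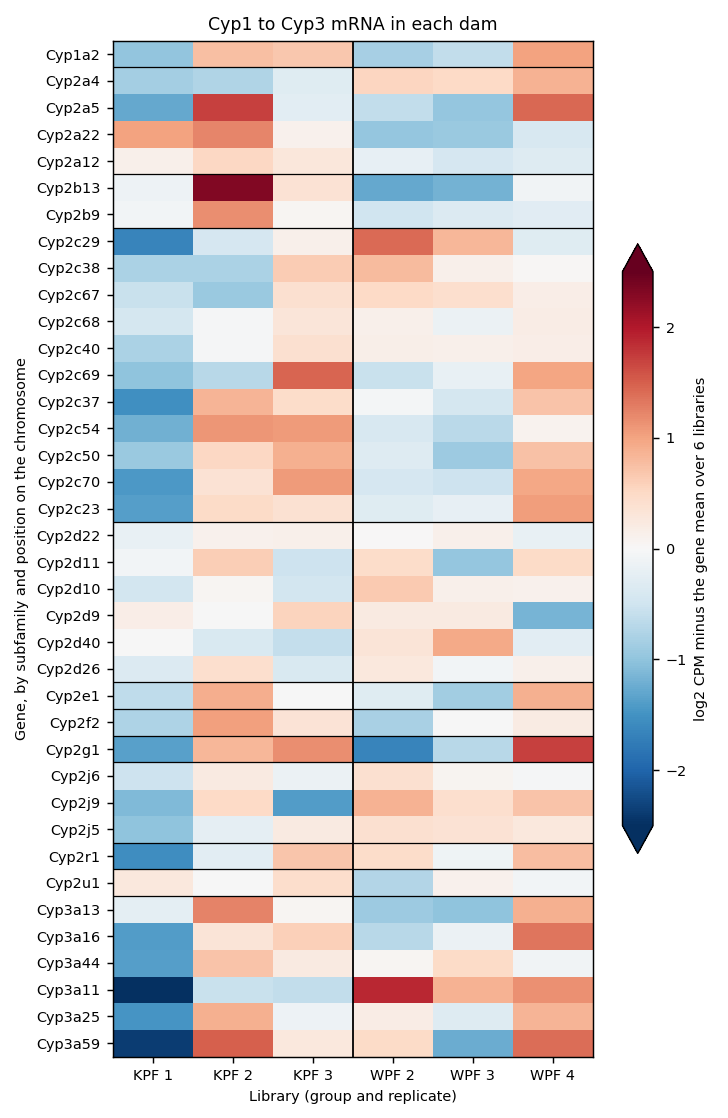
Log2 CPM of each of the 38 tested members (rows, by subfamily and chromosomal position) minus its mean over the 6 libraries (columns), from blue (below) to red (above). KPF replicate 1 was the lowest library for 22 members and KPF replicate 2 the highest for 15, while *Cyp3a11*, *Cyp2a4* and *Cyp2a22* are among the members that separate the groups.

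Genes that control or supply the P450s were taken from hand-written lists. Of 13 tested xenobiotic receptors and regulators, 1 was called higher and 1 lower. The bile acid receptor FXR (*Nr1h4*) was at 219, 313 and 210 CPM in KPF against 138, 174 and 170 CPM in WPF (log2 fold change 0.62, SE 0.26, adjusted p = 0.456 in edgeR). The antioxidant factor NRF2 (*Nfe2l2*) was at 33.0, 91.1 and 126 CPM in KPF against 159, 309 and 145 CPM in WPF (-1.29, SE 0.52, adjusted p = 0.450 in edgeR). In both genes the groups did not overlap. The call of *Nr1h4* ended without KPF replicate 2 (0.41) or WPF replicate 2 (0.52), 3 (0.68) or 4 (0.66), and that of *Nfe2l2* without KPF replicate 1 (-0.91) or 2 (-1.37) or WPF replicate 3 (-0.87). *Nr1i3* was at 552, 963 and 120 CPM in KPF against 222, 90.3 and 271 CPM in WPF, which overlapped (1.49, SE 0.72, adjusted p = 0.496 in edgeR). It was at 0.79 without KPF replicate 2, and was called higher without KPF replicate 3 (1.96), by DESeq2 (1.49) and with no filter (1.42). *Nr1i2* was at 136, 244 and 94.2 CPM in KPF against 139, 90.3 and 112 CPM in WPF (0.48, SE 0.38). *Ahr* (-0.03, SE 0.34), *Rxra* (0.12, SE 0.32) and *Hnf4a* (0.22, SE 0.25) were not called. *Arnt*, the partner of AHR, was not called either (-0.51, SE 0.33), but was called lower without WPF replicate 3 (-0.76) and was at -0.12 without WPF replicate 4.

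Of the 6 genes of electron supply, 1 was called. *Pgrmc2*, a heme chaperone that binds P450s, was at 25.5, 27.1 and 29.4 CPM in KPF against 49.6, 51.1 and 31.5 CPM in WPF, with no overlap (log2 fold change -0.69, SE 0.24, adjusted p = 0.430 in edgeR). The call ended without KPF replicate 1 (-0.64) or WPF replicate 2 (-0.60) or 3 (-0.57). *Por* was at 108, 391 and 115 CPM in KPF against 130, 68.1 and 245 CPM in WPF (0.47, SE 0.63), and was at -0.41 without KPF replicate 2. The electron carrier *Cyb5a* was at 218, 378 and 414 CPM in KPF against 377, 313 and 438 CPM in WPF (-0.16, SE 0.31). Of 12 genes of heme synthesis and breakdown, 1 was called. *Alas1*, the rate-limiting enzyme of heme synthesis in liver, was at 175, 719 and 64.8 CPM in KPF against 63.7, 56.7 and 123.4 CPM in WPF (1.98, SE 0.81, adjusted p = 0.453 in edgeR). KPF replicate 3 lay among the WPF libraries, and without KPF replicate 2 the log2 fold change was 0.56 and the call was lost, as it was without WPF replicate 2 (1.83) or 3 (1.77).

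Genes that the same receptors act on outside the P450s gave no call, neither among 3 tested AHR targets (*Nqo1*, *Tiparp* and *Ugt1a6a*) nor among 7 tested CAR and PXR targets, whose log2 fold changes lay between -0.52 for *Aldh1a7* and 0.64 for *Slco1a4*. Of 7 tested pericentral genes other than P450s, *Axin2*, a target of Wnt signaling, was called lower, at 3.86, 7.35 and 5.55 CPM in KPF against 10.1, 18.7 and 11.8 CPM in WPF (-1.27, SE 0.35, adjusted p = 0.430 in edgeR). Of 7 periportal genes, *Pck1*, the enzyme of gluconeogenesis, was called higher, at 270, 1744 and 326 CPM in KPF against 201, 131 and 318 CPM in WPF (1.85, SE 0.75, adjusted p = 0.453 in edgeR), with KPF replicate 2 far above the rest. Its call ended without that library (0.46) and without WPF replicate 2 (1.80) or 3 (1.59), whereas *Axin2* was called whichever library was left out (-1.53 to -0.96).

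**Figure D5:**
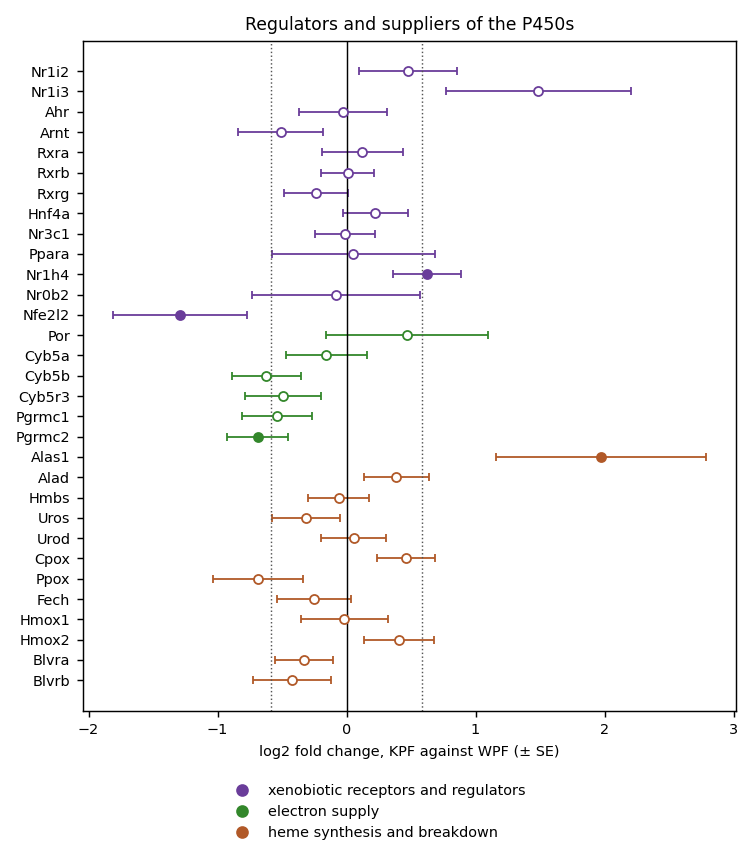
Log2 fold change of KPF against WPF (x axis) with its standard error for the tested receptors and regulators and the genes of electron and heme supply (y axis); filled points were called, open points were not, and dotted lines mark 1.5-fold. *Nr1h4* and *Alas1* were called higher and *Nfe2l2* and *Pgrmc2* lower.

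Reads could be assigned wrongly between close copies. Cut into windows of 150 bases, the longest protein-coding transcripts of 18 of the 48 members shared at least a single exact window with another gene. The other 30 shared none, *Cyp3a11* and *Cyp2c29* among them. For these 2 genes the transcripts cut had 2344 and 1783 bases, while the exonic lengths counted were 5093 and 3061. Exonic sequence outside the transcript cut, and stretches that are nearly but not exactly alike, were not checked. The shared part was 4.22% of windows for *Cyp2a4* (with *Cyp2a5*), 3.46% for *Cyp2a22* and 3.72% for *Cyp2a12* (with each other), and 5.04% for *Cyp2b13*. It exceeded 20% for *Cyp2c40* (29.1%) and *Cyp2c69* (22.5%).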

How the data were processed

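Liver poly(A) RNA was sequenced in 3 KPF and 3 WPF dams. The authors deposited a table of raw counts for each gene, its exonic length and FPKM values (counts divided by exonic length and by the library total), 1 column per library, with 0 columns left unmapped. The submitters' processing notes name cutadapt 1.9.1, HISAT2 2.2.1, HTSeq 0.6.1, DESeq2 and the build GRCm39, and strand is not given in the sources used here. Symbols came from GENCODE M21 (52073 of 56691 IDs matched), whose GRCm38 coordinates were not combined with those of the table. Counts were fitted with edgeR 4.0.16 (R 4.3.3, TMM, quasi-likelihood test, Benjamini-Hochberg) over the 10866 genes whose mean FPKM reached 1, after the scripts were tested on simulated data. CPM was computed from TMM-scaled library sizes. The study used a t-test for its volcano plot, and edgeR was chosen because counts were deposited. The study counts libraries as biological replicates, and p-values set the difference between groups against the spread between these libraries. Members under the FPKM minimum were fitted with every gene of at least 10 reads and have no adjusted p.

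The members and lists were chosen with earlier results of these data known. Genes named were the called members, in each subfamily the member with the highest FPKM and that with the smallest p, fixed regulators and supply genes, other called genes of the lists, and *Mlxipl*; further members are given as values and were chosen after their values were seen. Alternatives were DESeq2 1.42.0, its size factors, library totals, other filters, limma 3.58.1 on log2(FPKM + 1) and log2(FPKM + 0.1), leaving out each library, and the replicate number as a block. No pair of libraries within a group agreed within sampling noise (chi-square per gene 48.1 to 147). Replicate numbers 2 and 3 occur in both groups but name different dams, and the block fit takes its group difference from these numbers only. Promoters are RefSeq windows on GRCm38.p6.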

Additional observations from a re-analysis of the deposited data

How the results depend on the processing

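Library totals in place of TMM moved the median log2 fold change of all genes by -0.137 and the share of calls that were higher from 59.5 to 33.7%, limma with a pseudocount of 1 moved them by -0.109 and to 30.5%, and with 0.1 by -0.136 and to 29.2%. Genes called higher, 634, numbered 371 with library totals, 1119 with at least 10 reads, 255 with a mean FPKM of at least 5, 1576 with no filter, 237 and 288 by limma with pseudocounts of 1 and 0.1, and 324 to 910 leaving out 1 library. Genes called lower, 432, numbered 729, 699, 205 and 910 with the same scaling and filters, 700 by limma with 0.1, and 246 to 709 leaving out 1 library. Genes past the adjusted threshold numbered 156 by DESeq2, 286 with no filter and 0 to 5 leaving out 1 library. Members past it numbered 3 by DESeq2, 3 with no filter and 0 whichever library was left out. Members called higher, 3, numbered 5 with no filter, 1 by limma with 1, and 1 to 5 leaving out 1 library. Members called lower, 3, numbered 7 with library totals, 6 with at least 10 reads, 7 with no filter, 7 by limma with either pseudocount, and 2 to 6 leaving out 1 library. Leaving out 1 library moved subfamily medians between -0.28 and 0.99 for Cyp2a, 0.61 and 1.74 for Cyp2b, -0.48 and 0.28 for Cyp2c, -0.44 and -0.0040 for Cyp2d, -0.77 and -0.33 for Cyp2j and -0.76 and 0.27 for Cyp3a, with Cyp2a, Cyp2b, Cyp2d and Cyp3a lowest without KPF replicate 2. Leaving out 1 library turned the direction of single genes, whose log2 fold changes then ranged from -0.082 to 1.04 for *Cyp1a2*, -1.07 to 0.71 for *Cyp2c69*, -0.39 to 0.77 for *Cyp2e1*, -0.41 to 1.64 for *Cyp2g1*, -0.97 to 0.15 for *Cyp3a25*, -0.28 to 0.34 for *Ahr*, -0.084 to 0.40 for *Rxra*, -0.41 to 1.04 for *Por* and -0.33 to 0.075 for *Cyb5a*. Library totals turned *Cyp2c69* (-0.12), *Cyp2e1* (-0.052), *Cyp2g1* (-0.21) and *Rxra* (-0.019), and limma turned *Cyp2c69* (-0.28 with either pseudocount). Apart from fewer or more genes tested and fewer libraries, the cause was not tested. Genes of few reads, such as *Cyp2b10* and *Cyp1a1*, were limited by depth.

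The replicate numbers did not pair the libraries. Deviations of same-numbered libraries correlated at 0.045 and -0.017, and only 2 numbers are shared. With the replicate block, 13 of the 38 tested members were called higher and 5 lower. Over all 10866 tested genes the same fit called 680 higher and 551 lower. The Cyp2a median was 1.11 and the Cyp2c median 0.69 in this fit, and the direction turned for *Cyp2r1* (0.048), *Cyp3a25* (0.45), *Ahr* (0.47), *Arnt* (0.025) and *Cyb5a* (0.20).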

Other observations

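Of the Cyp1 to Cyp3 symbols that end in a letter or mark a pseudogene, 12 had at least 10 reads and were left out above. *Cyp3a41a* was at 5.79, 4.93 and 14.8 CPM in KPF against 9.72, 15.4 and 18.9 CPM in WPF (log2 fold change -0.79, SE 0.46, adjusted p = 0.563 in edgeR's quasi-likelihood test). Its near copy *Cyp3a41b* was at 14.1, 14.6 and 18.0 CPM in KPF against 20.5, 22.9 and 17.5 CPM in WPF (-0.38, SE 0.21, adjusted p = 0.531). Neither was called. *Cyp2d37-ps*, annotated as a pseudogene, was at 231, 196 and 311 CPM in KPF against 188, 253 and 398 CPM in WPF, a level near that of *Cyp2d22* in FPKM (61.9 against 59.7, mean over the 6 libraries). *Cyp2d38-ps* was at 6.47, 7.89 and 37.1 CPM in KPF against 10.9, 11.5 and 35.8 CPM in WPF, where a single library of each group stood well above the other two.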
